A study of Mus musculus with 6 samples.

Results

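The 10 limb and position transcription factors *Prrx1*, *Prrx2*, *Tbx4*, *Tbx5*, *Tbx15*, *Pitx1*, *Shox2*, *Lmx1b*, *Meis1* and *Meis2* were picked by gene symbol from the 17854 genes of the expression table. All 10 had a row and all 10 passed the expression filter that left 14289 genes for testing. They were compared between 2 groups of male C57BL/6 mice, with bulk RNA-seq of 3 libraries, from 3 mice, in each group. The MSC-derived group held Tomato+ cells recovered from the repaired knee cartilage of mice with osteoarthritis after anterior cruciate ligament transection, into which mesenchymal stromal cells (MSCs) of the *Prrx1* lineage from inguinal white adipose tissue had been injected. The endogenous group held articular Tomato+ cells of age- and sex-matched *Prrx1-Cre; R26tdTomato* mice, in which the knee cells themselves carry the reporter. By the design, the Tomato+ cells sorted in both groups carry *Prrx1-Cre* and *R26tdTomato*. Whether all cells behind the libraries did was not tested. Cre is driven by *Prrx1* regulatory sequence and switches tdTomato on for good, so the label records that an ancestor of the cell used the driver and says nothing of present *Prrx1* expression. The hosts of the injected cells had joint injury and no reporter of their own, so cell origin, host and surgery cannot be told apart in this comparison.

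Transcription factors of the early limb bud tell mesenchymal cells that they belong to a limb, which limb it is, and where along it they lie. *Prrx1* and *Prrx2* are homeodomain proteins of limb and facial mesenchyme, the T-box genes *Tbx5* and *Tbx4* start the forelimb and hindlimb buds, and *Pitx1* gives the hindlimb its identity. *Shox2*, *Meis1* and *Meis2* act in the proximal limb, *Lmx1b* sets dorsal fate, and *Tbx15* works in limb skeleton, skin and fat precursors. Adult connective tissue cells keep part of this positional expression, so that fibroblasts and chondrocytes of different sites can be told apart by it.

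Depth was similar, with 22060628 to 24881796 expected counts per library, and a floor of 3 counts lay at 0.121 to 0.136 CPM (counts scaled to a library total of 1000000), which covers counting error only. Endogenous replicate 1 stood apart from its group. It had 3459 genes at 0 counts against 1338 and 1395 in the other two, and the chi-square statistic per gene against them was 59.6 and 56.2, compared with 5.48 between those 2 and 3.88 to 4.3 among the MSC-derived libraries. All 6 libraries were labelled chondrocyte. All 16 chondrocyte markers were lower in the MSC-derived libraries, where they summed to 0.119% to 0.124% of counts against 5.55% to 5.75%, and none of them was at 0 in all 3. *Col2a1*, with the most counts of that list, had 10604 to 11147 counts in the MSC-derived and 791142 to 837609 in the endogenous libraries. The endogenous libraries also held osteoblast transcripts. The 10 osteoblast markers, with *Col1a1* the gene of most counts, summed to 7.65% to 8.30% of counts there and 0.253% to 0.257% in the MSC-derived libraries. Blood cell markers ran the other way. The 15 leukocyte markers summed to 1.25% to 1.27% of counts against 0.0498% to 0.0625%, the 14 macrophage markers to 2.19% to 2.24% against 0.0394% to 0.0559%, the 12 neutrophil markers to 4.69% to 4.88% against 0.215% to 0.300%, and the 12 erythroid markers to 2.65% to 2.68% against 0.395% to 0.578%, and every gene of these 4 lists was called higher, with none at 0 in all endogenous libraries. The part of blood cells or osteoblasts in the differences below was not tested. In such bulk samples, fewer cells of a type and less RNA per cell cannot be told apart.

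The start-site regions of 7 of the 10 genes were in the RefSeq table used here (build GRCm38.p6, 250 bases before to 50 after each start), those of *Tbx5*, *Tbx15* and *Pitx1* not among them. The stretches upstream of *Prrx1*, the gene that defines the lineage label, of *Shox2*, which differed most between the groups, and of *Meis1*, which alone was not called, are given 5′ to 3′ on the strand of the gene without annotated exons. Capitals mark a match to a searched motif.
Prrx1, chr1:163313711-163313900, minus strand, 250 to 61 bases before the start: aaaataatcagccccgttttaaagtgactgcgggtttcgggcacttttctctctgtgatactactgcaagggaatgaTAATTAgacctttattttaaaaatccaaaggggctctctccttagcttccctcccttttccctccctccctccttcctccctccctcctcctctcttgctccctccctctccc
Shox2, chr3:66981772-66982021, minus strand, 250 to 1 bases before the start: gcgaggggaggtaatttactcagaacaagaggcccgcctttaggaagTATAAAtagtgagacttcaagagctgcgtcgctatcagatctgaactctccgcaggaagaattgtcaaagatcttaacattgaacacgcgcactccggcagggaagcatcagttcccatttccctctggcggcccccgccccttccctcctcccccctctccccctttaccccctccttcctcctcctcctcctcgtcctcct
Meis1, chr11:19018986-19019219, minus strand, 250 to 17 bases before the start: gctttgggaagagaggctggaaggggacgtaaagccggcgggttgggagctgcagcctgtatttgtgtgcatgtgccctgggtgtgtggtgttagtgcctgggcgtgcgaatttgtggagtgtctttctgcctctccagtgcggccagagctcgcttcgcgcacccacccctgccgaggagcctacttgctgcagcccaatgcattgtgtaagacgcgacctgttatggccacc
The motifs were searched on both strands of the 300 bases of each of 32851 start-site windows. TAATTA, the core that many homeodomain proteins bind, was found in 5.29% of all windows and among these genes only in that of *Prrx1*. TATAAA, the sequence of the TATA box, was found in 13.6% of all windows and in those of *Shox2*, *Tbx4* and *Meis2*. A match at any place and on either strand was counted, so these matches are not shown to be TATA boxes in use. TGACAG (the MEIS core, 19.2% of windows), AGGTGTGA (the T-box core, 1.28%) and TAATCC (the core for PITX-type homeodomains, 7.06%) had no match in the 7 windows. The windows differed in base composition, from 47.7% GC and 6 CpG dinucleotides at *Prrx1* to 70.3% GC and 28 CpG at *Prrx2*, with a median of 52.7% GC over all windows.

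Of the 10 factors, 9 were lower in the MSC-derived libraries, with falls of 3.84-fold (*Tbx4*) to 14.5-fold (*Shox2*), and *Meis1* did not pass the test. None had a positive log2 fold change in edgeR or DESeq2. Over all genes tested, 30.3% were called lower and 31.3% higher (edgeR quasi-likelihood test, Benjamini-Hochberg adjusted p of 0.05 or less), that is 4333 and 4468 genes. With limma on log2(TPM + 1) the split was 5962 lower and 3124 higher, and the median of all genes moved to -0.28 on the log2 scale, so TPM differences stand relative to that shift. All 9 were also lower by 2-fold or more, as were 21.9% of all genes tested. The 3 MSC-derived libraries lay below the 3 endogenous ones in CPM for 9 of the 10 genes, against 31% of all genes tested, and in TPM (transcript abundance, which divides by transcript length and sums to 1000000 per library) for all 10, against 47.4% of all genes tested. The median log2 fold change (MSC-derived minus endogenous) of the 10 genes was -2.25, beside 0.05 over all genes. Without endogenous replicate 1, all 10 were called lower, as were 38.6% of the genes then tested. Together the 10 genes made up 0.00621% to 0.00679% of counts in the MSC-derived and 0.0365% to 0.0403% in the endogenous libraries.

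**Figure D1:**
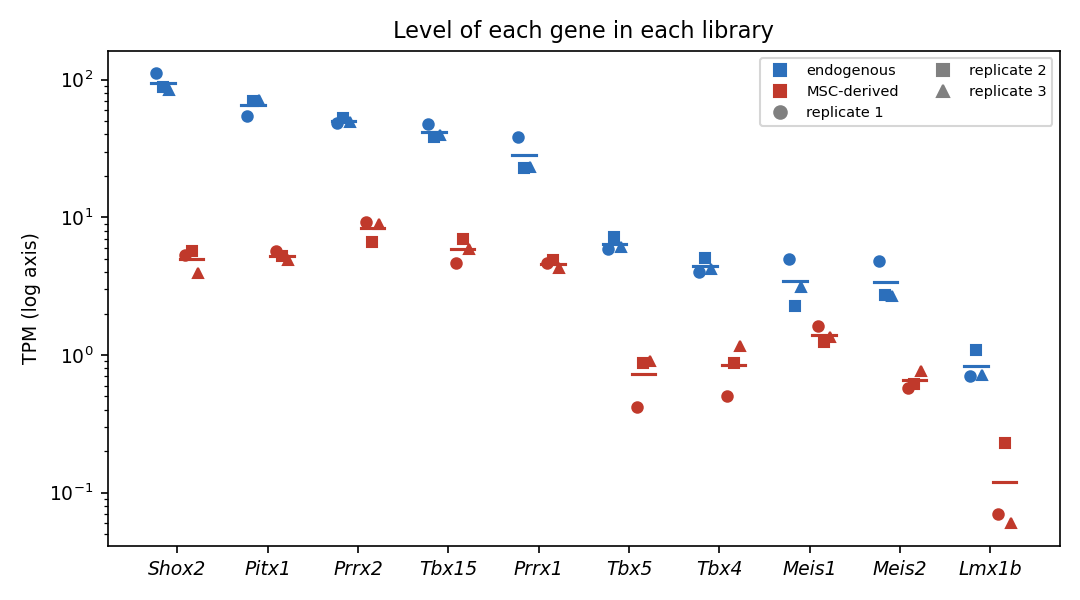
TPM of each gene in each of the 6 libraries on a log axis, with genes ordered by their endogenous mean (blue, endogenous; red, MSC-derived; short lines, means of 3 libraries; point shapes, replicate numbers). The MSC-derived points lie below the endogenous points for all 10 genes, furthest apart for *Shox2* and closest for *Meis1*.

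*Prrx1*, the gene whose regulatory sequence drives the Cre label, was still detected in every MSC-derived library, with 342 to 424 counts. Its level was 4.63, 4.91 and 4.3 TPM in MSC-derived replicates 1 to 3 and 38.34, 22.78 and 23.40 TPM in endogenous replicates 1 to 3. The MSC-derived libraries were close together and endogenous replicate 1 was the highest of its group. The fitted fall was 4.43-fold, a log2 fold change of -2.15 (standard error 0.17, edgeR adjusted p = 2.3e-05), and -2.01 without endogenous replicate 1. *Prrx2*, its closest relative, acts alongside *Prrx1* in limb and skull mesenchyme. It had 9.27, 6.62 and 9.01 TPM in the MSC-derived and 48.77, 52.57 and 49.37 TPM in the endogenous libraries. Its endogenous values were close together, while MSC-derived replicate 2 lay below the others of its group. The log2 fold change of *Prrx2* was also -2.15 (standard error 0.18, edgeR adjusted p = 3.4e-05). Both paralogs thus differed by about the same fold, and the share of *Prrx1* in the summed TPM of the pair was 36.1% ± 5.67 (SD, n = 3) in the MSC-derived and 35.5% ± 7.46 (SD, n = 3) in the endogenous libraries. The shares overlapped, with a difference of 0.600 percentage points (exact permutation test, two-sided, p = 0.8). Leaving out single libraries moved it between -2.66 (without MSC-derived replicate 2) and 4.87 percentage points (without endogenous replicate 1), and its sign also turned without endogenous replicate 2 (-2.02) or replicate 3 (-1.06).

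The factors of limb identity were low in the MSC-derived libraries, and the hindlimb gene *Pitx1* differed most among these factors. *Pitx1* had 5.66, 5.21 and 4.87 TPM in the MSC-derived libraries and 54.49, 70.32 and 71.03 TPM in the endogenous ones. The lowest endogenous value, that of replicate 1, was still far above the highest MSC-derived value. The fall was 9.36-fold (log2 fold change -3.23, standard error 0.18, edgeR adjusted p = 3.9e-06). *Tbx4*, which acts below *Pitx1* in the hindlimb bud, was a gene of low level with 30 to 60 counts per MSC-derived library. Its TPM values were 0.50, 0.88 and 1.17 in the MSC-derived and 4.03, 5.05 and 4.23 in the endogenous libraries, a fitted log2 fold change of -1.94 (standard error 0.37, edgeR adjusted p = 0.00287). *Tbx5*, the forelimb gene, was present in the endogenous knee cells at a level above that of *Tbx4*. It had 5.87, 7.14 and 6.09 TPM there, against 0.42, 0.87 and 0.90 TPM in the MSC-derived libraries, where 30 to 61 counts stood behind each value. Its log2 fold change was -2.74 (standard error 0.33, edgeR adjusted p = 0.000229).

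*Tbx4* and *Tbx5* did not keep the same balance in all libraries. The share of *Tbx4* in the summed TPM of the pair was 54.3%, 50.3% and 56.5% in the MSC-derived and 40.7%, 41.4% and 41.0% in the endogenous libraries, so that the groups did not overlap. The means were 53.7% ± 3.17 and 41.0% ± 0.363 (SD, n = 3 each), a difference of 12.7 percentage points (exact permutation test, two-sided, p = 0.1, adjusted p = 0.2 over the 4 pairs compared). With 3 libraries against 3, p = 0.1 is the smallest that an exact permutation test can give, so no such pair can pass 0.05. In counts, the MSC-derived share rested on few reads: in replicate 1 it was 50% with an exact Clopper-Pearson 95% interval of 36.8% to 63.2%, compared with 34.0% (29.4% to 38.9%) in endogenous replicate 1. The share of *Pitx1* in the sum of *Pitx1* and *Tbx5* was 87.7% ± 4.69 in the MSC-derived and 91.1% ± 0.944 in the endogenous libraries (SD, n = 3 each), with overlapping values (exact permutation p = 0.4, adjusted p = 0.533). The hindlimb gene was thus the larger of these 2 in every library.

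*Shox2*, a homeobox gene of the proximal limb that is needed for growth of the upper limb bone, differed most of the 10 genes. Its TPM values were 5.33, 5.70 and 3.93 in the MSC-derived libraries and 111.42, 87.87 and 83.80 in the endogenous ones. The highest of the 10 genes in the endogenous libraries was thus no higher than several others in the MSC-derived libraries. The fall was 14.5-fold (log2 fold change -3.86, standard error 0.18, edgeR adjusted p = 1.5e-06), and -3.72 on the log2 scale without endogenous replicate 1, where it was highest. *Shox2* overlaps *Rsrc1*, a splicing factor gene, and the library kit does not mark strand, so reads in the overlap cannot be told apart. *Rsrc1* had 850, 924 and 729 counts in the MSC-derived and 1776, 1326 and 1437 counts in the endogenous libraries, a log2 fold change of -0.94. *Tbx15*, a T-box gene of limb skeleton and of some fat depots, had 4.63, 7.0 and 5.90 TPM in the MSC-derived and 47.51, 38.38 and 39.59 TPM in the endogenous libraries. Its groups were far apart, and the fitted log2 fold change was -2.40 (standard error 0.16, edgeR adjusted p = 7.9e-06). The 12 markers of adipocytes and adipose stroma, the tissue from which the injected cells came, did not move together. Of the 10 tested, 6 were higher and 2 lower in the MSC-derived libraries. Named after their values were seen, the higher ones were *Fabp4*, *Pparg*, *Cebpa*, *Lpl*, *Pi16* and *Cd55*. The lower ones were *Adipoq* (log2 fold change -7.43, 12 to 28 counts against 3311 to 4153) and *Cidec* (-3.85).

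*Lmx1b*, the dorsal limb gene that is also needed in patella, nail and kidney development, was the lowest of the 10 in both groups. It had 7, 23 and 6 counts in the MSC-derived and 43, 78 and 54 counts in the endogenous libraries, or 0.07, 0.23 and 0.06 TPM against 0.70, 1.08 and 0.72 TPM. MSC-derived replicate 2 was the highest of its group and still below each endogenous library. The log2 fold change was -2.35 with a wide standard error of 0.65 (edgeR adjusted p = 0.0159). This call was lost without MSC-derived replicate 1 (adjusted p = 0.0719), MSC-derived replicate 3 (adjusted p = 0.070) or endogenous replicate 2 (adjusted p = 0.0576) in the same edgeR test.

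*Meis1* and *Meis2*, TALE homeodomain factors of the proximal limb, differed unequally. *Meis2* had 0.58, 0.62 and 0.77 TPM in the MSC-derived and 4.81, 2.74 and 2.68 TPM in the endogenous libraries, a log2 fold change of -1.99 (standard error 0.34, edgeR adjusted p = 0.00152). *Meis1* had 1.62, 1.25 and 1.35 TPM in the MSC-derived and 4.97, 2.28 and 3.13 TPM in the endogenous libraries. Endogenous replicate 1 was the highest of its group for both genes, at 1.41 times the mean CPM of the other two for *Meis2* and 1.86 times for *Meis1*. In counts scaled to library size, MSC-derived replicate 1 of *Meis1*, with 95 counts, lay above endogenous replicate 2, with 88. The fitted log2 fold change of *Meis1* was -0.89 (standard error 0.36, edgeR adjusted p = 0.0650). The edgeR call changed when a library was left out: the adjusted p was 0.0479 without endogenous replicate 1 (log2 fold change -0.59) and 0.0338 without endogenous replicate 2 (-1.13). DESeq2 (adjusted p = 0.0392) and limma on log2(TPM + 1) (adjusted p = 0.0160) called the gene lower, while limma on log2(FPKM + 1) (adjusted p = 0.0734) did not. Of 19 alternative fits, 7 called it.

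The share of *Meis1* in the summed TPM of *Meis1* and *Meis2* was 73.6%, 66.8% and 63.7% in the MSC-derived libraries and 50.8%, 45.4% and 53.9% in the endogenous ones. The groups did not overlap, with means of 68.1% ± 5.09 and 50.04% ± 4.28 (SD, n = 3 each) and a difference of 18.02 percentage points (exact permutation test, two-sided, p = 0.1, adjusted p = 0.2 over the 4 pairs). *Meis1* is also a gene of blood stem and progenitor cells and megakaryocytes. The 14 markers of those cells summed to 0.0210% to 0.0222% of counts in the MSC-derived and 0.0164% to 0.0181% in the endogenous libraries. This sum mixes genes that went both ways, and 4 were called higher and 4 lower. Named after their values were seen, the higher ones were *Pf4* (log2 fold change 3.36), *Tal1*, *Myb* and *Gata1* (1.73). The lower ones were *Gp1bb* (-2.32), *Cd34*, *Gata2* and *Procr* (-0.63). *Cd34*, with the most counts of that list, had 814 to 975 counts in the MSC-derived and 1443 to 2004 in the endogenous libraries. None of the 14 markers was at 0 in all libraries of a group, and their part in the *Meis1* level was not tested. RefSeq places non-coding genes over *Prrx1*, *Tbx5*, *Tbx15*, *Lmx1b*, *Meis1* and *Meis2*, whose own levels were not analysed here.

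**Figure D2:**
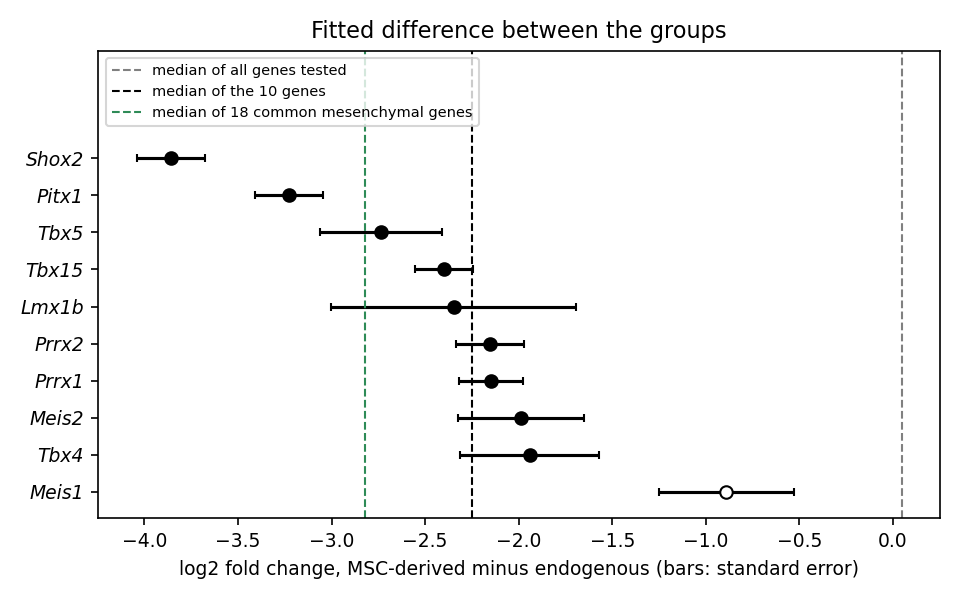
Log2 fold change of each gene (MSC-derived minus endogenous) with its standard error from edgeR, where filled points were called at an adjusted p of 0.05 or less and the open point was not. Dashed lines mark the medians of all genes tested (0.05), of the 10 genes (-2.25) and of 18 common mesenchymal genes (-2.82). To the right of the mesenchymal median lie 8 of the 10 genes, as do most genes tested.

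The fall of these factors was set beside that of general connective tissue genes. All 18 common mesenchymal genes, such as collagens and *Pdgfra*, were called lower (median log2 fold change -2.82) and summed to 1.08% to 1.09% of counts in the MSC-derived against 13.04% to 14.1% in the endogenous libraries. Of the 10 factors, 8 had a log2 fold change nearer to 0 than that median, of which *Tbx5* and *Lmx1b* lay within their standard errors of it, and *Shox2* and *Pitx1* had a larger fall. Most genes tested also lay above the mesenchymal median, since only 9.4% had a log2 fold change below that of *Tbx5* (-2.74). The mesenchymal genes themselves spread from -5.48 to -0.24, a range that holds all 10 factors. The 16 chondrocyte markers had a median of -6.10 and the 10 osteoblast markers, which share *Col1a1* with the mesenchymal list, of -5.57, and each of these genes was called lower. Smooth muscle and pericyte markers were lower for 9 of 10, endothelial markers were higher for 6 and lower for 1 of 10, and of 4 muscle markers tested 1 was lower.

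The order of the 10 genes by TPM, which can be compared between genes, was not the same in both groups. In the endogenous libraries *Shox2* led (94.4 ± 14.9 TPM, SD, n = 3), followed by *Pitx1* (65.3 ± 9.35), *Prrx2* (50.2 ± 2.04), *Tbx15* (41.8 ± 4.96) and *Prrx1* (28.2 ± 8.81). A wide step led to *Tbx5* (6.37 ± 0.679), *Tbx4* (4.44 ± 0.540), *Meis1* (3.46 ± 1.38), *Meis2* (3.41 ± 1.21) and *Lmx1b* (0.833 ± 0.214). The libraries of neighbours in this order overlapped only between *Tbx4* and *Meis1* and between *Meis1* and *Meis2*. In the MSC-derived libraries the upper 5 genes were the same, but *Prrx2* led (8.30 ± 1.46 TPM), and *Tbx15* (5.84 ± 1.19), *Pitx1* (5.25 ± 0.396), *Shox2* (4.99 ± 0.934) and *Prrx1* (4.61 ± 0.305) each overlapped with the gene above it. *Meis1* followed at 1.41 ± 0.191 TPM, apart from *Prrx1* above and *Tbx4* below it. *Tbx5* (0.730 ± 0.269) overlapped with *Tbx4* (0.850 ± 0.336) above and *Meis2* (0.657 ± 0.10) below it, and *Lmx1b* came last at 0.120 ± 0.0954 TPM, apart from *Meis2*.

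Dividing each gene by *Prrx1* in the same library takes out the scaling between libraries. *Shox2* was at 0.914 to 1.16 times the TPM of *Prrx1* in the MSC-derived and at 2.91 to 3.86 times in the endogenous libraries. *Pitx1* was at 1.06 to 1.22 times against 1.42 to 3.09 times, where the lowest endogenous ratio was that of replicate 1. Both genes were thus lower relative to *Prrx1* in each MSC-derived library. *Meis1* lay the other way, at 0.255 to 0.350 times *Prrx1* in the MSC-derived and 0.10 to 0.134 times in the endogenous libraries. For *Prrx2*, *Tbx4*, *Tbx5*, *Tbx15*, *Lmx1b* and *Meis2* the ratios of the 2 groups overlapped. *Prrx1* itself fell (log2 fold change -2.15), and only 12.9% of all genes tested had a lower log2 fold change. Most genes thus rose relative to *Prrx1*, as *Meis1* did. The share of all genes whose ratios separate the groups was not set beside these. These ratios share *Prrx1* as their base and were not tested.

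**Figure D3:**
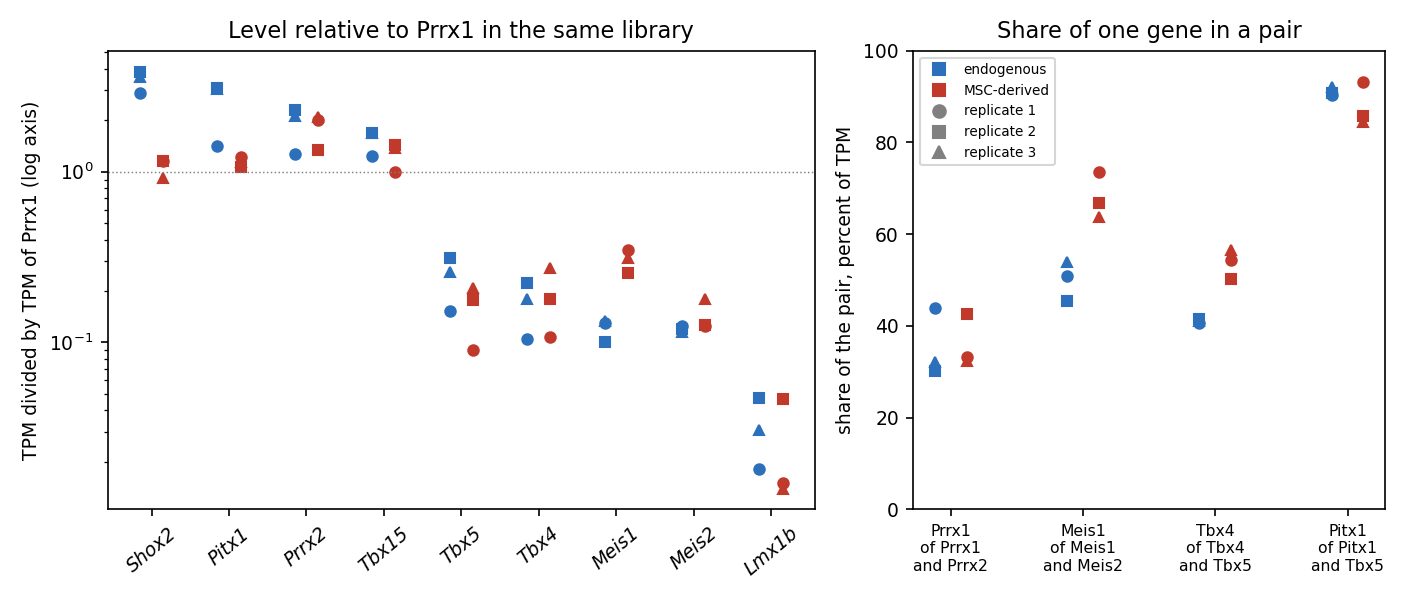
Left, TPM of each gene divided by the TPM of *Prrx1* in the same library, on a log axis, and right, the share of the first gene in the summed TPM of each of 4 pairs (blue, endogenous; red, MSC-derived; shapes, replicate numbers). The groups separate for *Shox2*, *Pitx1* and *Meis1* on the left and for the *Meis1* (68.1% against 50.04%) and *Tbx4* (53.7% against 41.0%) shares on the right. The ratios to *Prrx1* over all genes were not set beside these.

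The genes whose levels ran most like *Prrx1* over the 6 libraries, by Euclidean distance of centred log2 CPM among 12670 genes, were *Slc38a2* (distance 0.118), an amino acid transporter, *Aspn* (0.152), a small leucine-rich matrix proteoglycan, *Uap1* (0.155), an enzyme of amino sugar synthesis, *Pard3b* (0.181), a cell polarity gene, and *Slc30a4* (0.212), a zinc transporter. *Aspn*, for example, had 1063, 1074 and 960 counts in the MSC-derived and 5016, 3481 and 3851 counts in the endogenous libraries, with replicate 1 highest as for *Prrx1*. None of the other 9 factors was among these 5. *Meis2* (rank 254) and *Tbx15* (rank 295) came closest, then *Prrx2* (rank 560), and *Shox2* was farthest (rank 3332), while *Lmx1b* was too low for the comparison. The distance rests on 2 groups of 3 libraries and so is mostly set by the size of the group difference and by endogenous replicate 1.

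The factors also differed in how endogenous replicate 1 stood to the other two. Its CPM was above their mean for *Meis1* (1.86 times), *Shox2* (1.45), *Prrx1* (1.45), *Meis2* (1.41) and *Tbx15* (1.09), and below it for *Prrx2* (0.850), *Tbx5* (0.824), *Tbx4* (0.738), *Pitx1* (0.690) and *Lmx1b* (0.673). *Tbx4*, *Tbx5* and *Pitx1* were thus low in that library, both *Meis* genes, *Shox2* and *Tbx15* were high, and *Prrx1* and *Prrx2* were split. These ratios rest on a single library that stood apart from its group, and the same ratio over all genes was not set beside them.

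The relatives and partners of these factors in the limb were taken from 5 lists of other genes. The table held 108 such genes, of which 71 were tested. Of these, 50 were called lower, 3 higher and 18 were not called, and their median log2 fold change was -2.60, beside 30.3% lower and 31.3% higher over all genes. The lists, like the factors, were chosen with earlier results of these data known, so the counts are no test of a set. The count called higher was 7 without endogenous replicate 1 and 5 without endogenous replicate 2. Of the other T-box genes 6 were tested, 5 were lower and 1 was not called (median -2.0), although 2 were called higher without endogenous replicate 1 and 1 without endogenous replicate 2 or 3. *Tbx2*, a repressor expressed at the limb margins, had 22 to 43 counts in the MSC-derived against 739 to 1080 in the endogenous libraries (log2 fold change -4.92, standard error 0.29). Its sister gene *Tbx3* changed by -2.85 and *Tbx18*, a gene of mesenchyme and pericytes, by -2.30 on the log2 scale.

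The TALE family was divided. Of 14 genes tested 7 were lower, 1 was higher and 6 were not called, with a median of -0.96. The Iroquois genes, which pattern early limb and other tissues, were at the low end: *Irx1* had 0, 4 and 2 counts in the MSC-derived and 157, 112 and 147 counts in the endogenous libraries (log2 fold change -6.09, standard error 0.74), and *Irx5* (-5.52) and *Irx3* (-4.05) were also lower. Other TALE genes lay nearer 0. *Pbx3*, a cofactor to which MEIS proteins bind, had a log2 fold change of -0.31, *Pknox1* of -0.11, *Tgif1* of 0.05 and *Meis3* of 0.51, none of them called by edgeR. Limma on TPM called *Pknox1* and *Tgif1* lower, and limma on FPKM called *Meis3* higher. The fold changes of *Pknox1* and *Tgif1* turned sign under other scalings, and that of *Pbx3* was 0.31 without endogenous replicate 1. *Pbx2*, named after its value was seen, was higher in the MSC-derived libraries (log2 fold change 1.19, standard error 0.15, edgeR adjusted p = 0.000281). Without endogenous replicate 1 or 2, the list had 2 genes called higher in place of 1.

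Among paired-type and LIM homeodomain relatives of *Prrx1*, *Pitx1* and *Lmx1b*, 6 of 22 in the table were tested and 3 were lower (median -1.64), against 5 lower without endogenous replicate 1. *Alx4*, a paired-type gene of anterior limb and skull mesenchyme, had 5, 0 and 8 counts in the MSC-derived and 149, 54 and 47 in the endogenous libraries (log2 fold change -4.30, standard error 1.00). *Lhx2*, a LIM gene of limb outgrowth, changed by -3.18 and *Ldb2*, a cofactor of LIM proteins, by -2.07 on the log2 scale. *Ldb1*, the other cofactor, had 2048 to 2426 counts against 1695 to 2416 and a log2 fold change of -0.06, which was not called. It was called lower by edgeR without endogenous replicate 1 and by limma on TPM. Its fold change turned sign when scaled by library totals alone and with limma on FPKM.

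Other limb bud transcription factors were lower for 19 of 24 tested (median -2.63). *Dlx6* (-5.20) and *Dlx5* (-5.08), partners in the outer limb and in bone formation, and *Etv4* (-4.71), a target of FGF signals, had the largest log2 falls. *Dlx5* had 22 to 42 counts in the MSC-derived and 868 to 1073 counts in the endogenous libraries. *Etv5*, the relative of *Etv4*, was at -0.22 and was not called, although edgeR without endogenous replicate 1 and limma on TPM called it lower. *Prdm1*, named after its value was seen, was the only gene of this list called higher (2 were without endogenous replicate 1), with 365 to 439 counts against 40 to 63 (log2 fold change 2.85, standard error 0.23, edgeR adjusted p = 2.5e-05). It is a repressor of the limb bud that also acts in lymphoid and myeloid cells.

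Limb bud signals and their receptors were called lower for 16 of 21 tested, with a median of -3.30. *Hhip*, a membrane protein that binds hedgehog ligands, had 31 to 56 counts in the MSC-derived and 3552 to 4076 in the endogenous libraries (log2 fold change -6.59, standard error 0.17). *Grem1*, a secreted BMP antagonist of the limb bud, changed by -6.55 and the ligand *Bmp7* by -5.69 on the log2 scale. *Rspo2*, a Wnt enhancer needed for limb outgrowth and named after its value was seen, was the only one called higher (log2 fold change 0.69, standard error 0.13, edgeR adjusted p = 0.00235), and limma on TPM did not call it.

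**Figure D4:**
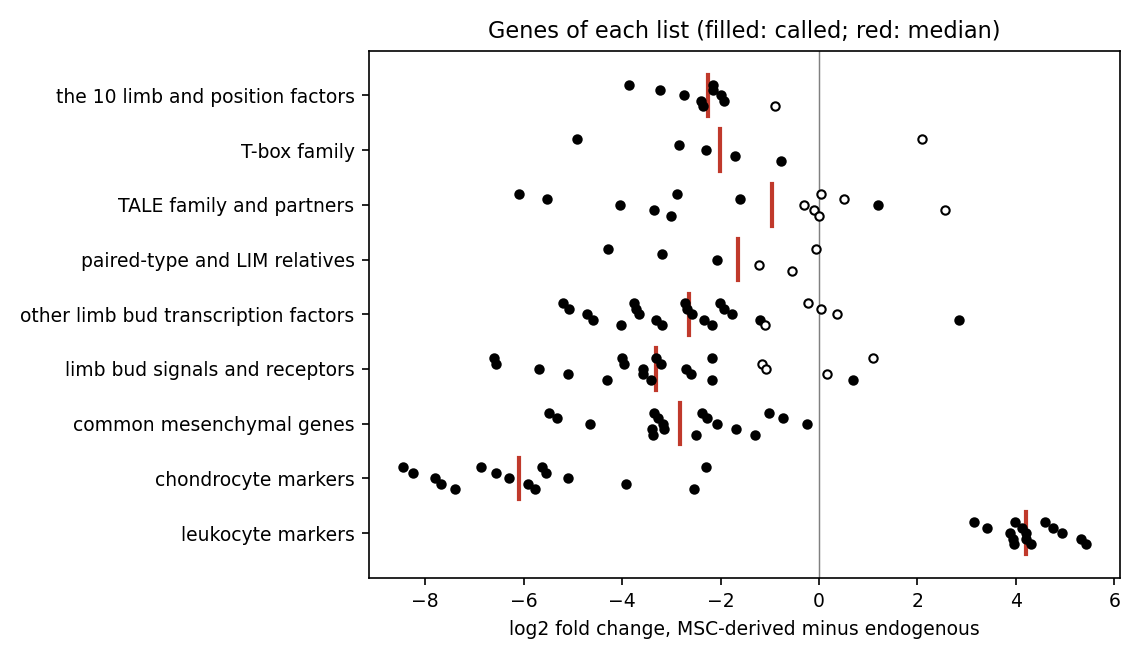
Log2 fold change (MSC-derived minus endogenous) of every tested gene of the 10 factors, 5 wider lists and 3 marker lists, with filled points for called genes, open points for genes not called and red lines for medians. Most limb genes lie to the left of 0, with the TALE family spread widest about it, while chondrocyte markers lie furthest left (median -6.10) and leukocyte markers to the right (median 4.20).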

How the data were processed

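Bulk RNA-seq of 3 MSC-derived and 3 endogenous libraries was analysed, with groups and replicate numbers taken from the sample labels. Reads were cleaned by the authors with SOAPnuke, mapped with HISAT2 to the genome and with Bowtie2 to a gene set, and quantified with RSEM, and the submitters' processing notes name Bowtie2 2.2.5, RSEM 1.2.12 and the mm9 build. No coordinates of that build are given, and RefSeq sequences carry their own build. The authors deposited expected counts per gene from RSEM without normalization. The deposited TPM values sum to 1000000 per library, and the deposited FPKM values sum to 504768 to 813572. A further deposited signal column is each library's rounded-up expected counts multiplied by a constant, and served only as a check. The 24 columns used were matched to samples by name, and 8 columns of group averages were not used.

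Expected counts were rounded, which changed 20.6% of values, and tested in R 4.3.3 by edgeR 4.0.16 (TMM, filterByExpr, glmQLFit and glmQLFTest, no block) over 14289 genes with Benjamini-Hochberg adjustment and a threshold of 0.05. Standard errors were obtained by dividing the absolute log2 fold change by the root of the F statistic. The test was also run on simulated data, in which far fewer genes changed than were called here. Its power was judged there only on genes with higher counts, so this run does not cover genes of low count. Shares of gene pairs were compared with exact permutation tests in scipy 1.17.1, and log2 CPM used a prior count of 2. Figures were drawn with matplotlib 3.10.9.

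The 10 genes and all lists were chosen with earlier results of these data known. All 10 genes are named. From each wider list the 3 called genes with the largest change (average log2 CPM of at least 0) and every uncalled gene with at least 100 counts in each library are named, from marker lists the gene with most counts, and for *Prrx1* the 5 nearest genes at an average log2 CPM of 1 or more. An uncalled gene that this rule names is not reported here. Genes named after their values were seen are marked. Alternatives were DESeq2 1.42.0, other normalizations and filters, limma 3.58.1 on TPM and FPKM, the replicate number as a block, single libraries left out, other thresholds, and a robust edgeR fit chosen after seeing the data. Same-numbered libraries of the 2 groups come from different mice, and the intervals and floors cover counting error only.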

Additional observations from a re-analysis of the deposited data

How the results depend on the processing

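The 9 falls among the 10 factors kept their direction in all alternatives run. The count called lower lay between 8 and 10 except at an adjusted p of 0.001 or less, where it was 6. Over all genes, the alternative fits called from 3761 of 14744 (without MSC-derived replicate 2) to 5962 of 14289 (limma on log2(TPM + 1)) lower at 0.05. The number of all genes called at 0.001 is not given here. At 0.001, *Tbx4* (log2 fold change -1.94), *Lmx1b* (-2.35) and *Meis2* (-1.99) were not called. Leaving out single libraries gave *Lmx1b* -3.21 to -2.04 and *Meis1* -1.13 to -0.59, with the changed calls given above. *Meis1* was called lower with DESeq2 (-0.91), upper quartile normalization (-0.97), limma on log2(TPM + 1) (-0.85 with the filter, -0.85 without) and limma on log2(TPM + 0.1) (-1.18). With the 2 fits that left out an endogenous library, 7 of 19 alternative fits called it. The TPM fits carry the shift of all genes (median -0.28 with log2(TPM + 1)). The wider lists had 3 genes called higher, against 5 with limma on log2(TPM + 1) without filter, 6 with limma on log2(FPKM + 1), and 3 to 7 with single libraries left out. The share of *Prrx1* in its pair differed by 0.600 percentage points, and by -2.66 to 4.87 with single libraries left out. The cause of these changes was not tested.

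With the replicate number as a block, *Prrx1* had a log2 fold change of -2.13, and the block changed no call among the 10 factors (*Lmx1b* adjusted p = 0.0204, *Meis1* 0.0983, edgeR), with 4103 genes higher and 3920 lower over all genes. Deviations of same-numbered libraries from their group means correlated at 0.0130, 0.00222 and 0.0179. These values have no reference beside them and endogenous replicate 1 weighs on them, so they cannot decide whether the numbers share a batch. Depth limits *Lmx1b*, *Tbx4*, *Tbx5* and *Meis2*, with 6 to 61 counts per MSC-derived library.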
